A study of Mus musculus with 24 samples.

Results

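Genes with names of 5 DNA repair families were followed across 24 arrays of human myeloma tumours, untreated or given filanesib, pomalidomide, dexamethasone or their combinations. Members were all genes whose symbol in the array's probe table begins with XRCC, RAD, ERCC, MSH or MLH and a number, and the same search was made for FANC and BRCA symbols. It returned 30 of the 14884 genes with a symbol. There were 18 RAD genes, 6 XRCC genes, 4 MSH genes, 1 MLH gene and 1 ERCC entry, and no FANC or BRCA symbol was found. The ERCC entry is ERCC6L2-AS1, an antisense RNA, and RAD21-AS1 is another. Repair genes of these families outside the 30 were not analysed here. Each gene was read from 1 probe set, the one with the highest mean over the arrays.

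MM.1S, a human multiple myeloma cell line, was grown with Matrigel as plasmacytomas under the skin of CB17-SCID mice, which lack functional T and B cells and keep other host cells. The 8 groups of 3 arrays were control (vehicle, PBS), filanesib at 10 mg/kg, dexamethasone at 0.5 mg/kg, pomalidomide at 8 mg/kg, the 3 pairs of these drugs and all 3 together. The drug groups are recorded at 2 days of treatment. All tumours came from 1 cell line, and whether the 3 arrays of a group came from 3 animals is not stated, so the tests below weigh differences against spread that may be technical. Filanesib inhibits the kinesin spindle protein, a motor that separates the poles of the mitotic spindle. Pomalidomide binds cereblon and redirects a ubiquitin ligase, and dexamethasone is a glucocorticoid. The study asked whether filanesib adds to pomalidomide and dexamethasone in myeloma.

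Cells repair DNA by several routes. Homologous recombination copies a break from the sister chromatid and runs mainly in S and G2 phase, and end joining ligates broken ends in any phase. Mismatch repair removes replication errors, excision repair removes damaged bases and bulky lesions, and the checkpoint clamp signals from stalled forks. Many recombination and mismatch repair genes are transcribed with the cell cycle in dividing cells, and myeloma is known for abundant chromosome rearrangement. Several genes in these families, RAD21 among them, also have roles outside repair.

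The values are log2 expression levels, so a difference of 1 is a doubling, and their number limits precision: the median standard error (SE) was 0.14 between 2 groups of 3 arrays and 0.07 between 12 arrays and 12. Array medians lay between 3.65 and 3.73. The residual standard deviation (SD) of the 3 arrays with pomalidomide alone was 0.193 to 0.288, above the 0.127 to 0.180 of the other 21 arrays. Every SE below uses a variance per gene pooled over all groups, so it does not follow the wider spread of those 3 arrays. The labelled tumour was checked against 8 plasma cell markers, whose mean level was 8.57 to 8.87 in all 24 arrays. That mean was not level across groups: it was 8.57 to 8.69 with the triple combination and 8.74 to 8.87 in control, without overlap. Human probes for macrophage, endothelial, fibroblast and T or NK cell markers averaged between 2.84 and 4.67; the labels name the mouse as organism, and mouse RNA could be read only by cross-hybridisation. Of the 30 members, 19 had a mean level of at least 5, and the other 11, with RAD51B, RAD51C, RAD52, RAD54B and XRCC3 among them, were dimmer.

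Members' levels ranged widely on the array. XRCC5, a Ku subunit that holds broken DNA ends, had the highest mean level, 10.17, and its arrays lay between 9.68 and 10.49. The lowest mean level, 2.34, was that of RAD51AP2, a dim recombination gene, with arrays between 2.09 and 2.59. RAD51AP2, RAD51B, RAD21-AS1 and the minor or germline paralogues RAD9B and RAD21L1 had mean levels below every array's median. Levels of different probe sets are not set against each other further, since probes differ in how strongly they bind.

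Filanesib raised 3 of the 30 members when its effect was averaged over the 4 backgrounds of the other drugs, which sets 12 arrays with filanesib against 12 without. RAD18 rose by 0.37 ± 0.06 (SE), XRCC2 by 0.48 ± 0.10 and RAD21 by 0.23 ± 0.05, and no member fell. A gene was called at an adjusted p under 0.05 in limma's moderated test, with Benjamini-Hochberg adjustment over all 14884 genes. Of all genes 1.40% were called with filanesib, 1.25% higher and 0.148% lower. Members had a median difference of 0.12, against -0.0019 over all genes, and 22 of 30 had a positive difference, against 49.2% of all genes. Among genes with a mean level of at least 5, 16 of 19 members had a positive difference, against 61.2% of all such genes. Differences were positive in all 4 backgrounds in 15 members, against 10.5% of all genes, and 13 members had an unadjusted p under 0.05, against 11.7%. In bulk tumours, a change in how many cells are in a phase or of a type cannot be told apart from a change of RNA per cell.

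**Figure D1:**
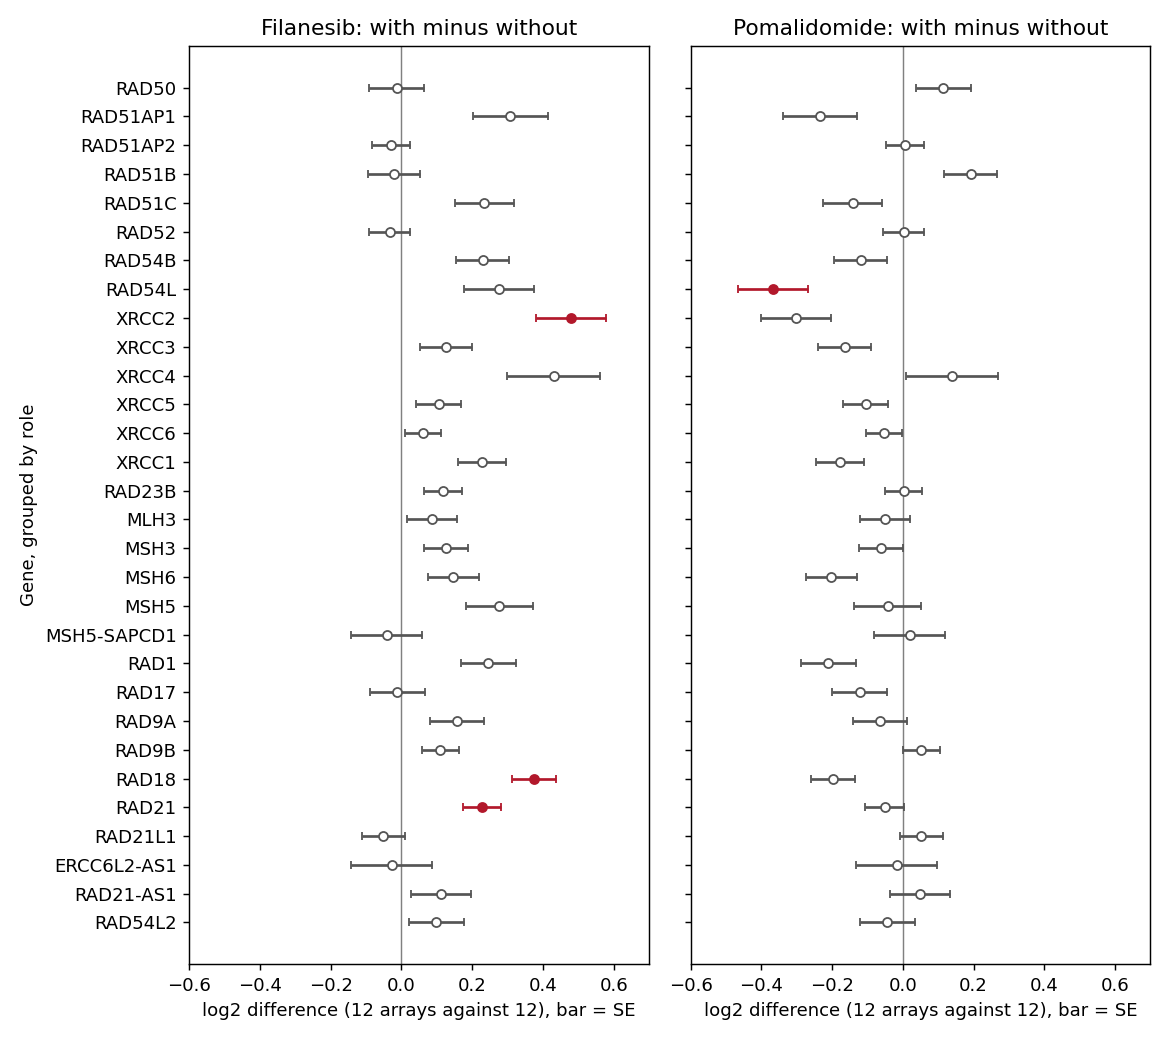
Average log2 difference of each of the 30 genes with filanesib (left) and with pomalidomide (right), 12 arrays with the drug minus 12 without, with bars of 1 SE; genes are grouped by role, and filled red points passed the threshold of 0.05. RAD18, XRCC2 and RAD21 are the filled points with filanesib, and RAD54L is the only one with pomalidomide, below 0.

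RAD18 is a ubiquitin ligase that marks the sliding clamp PCNA at stalled replication forks (probe set 16950448). Its level was 6.85 at the lowest, 7.01 at the median and 7.32 at the highest of the 12 arrays with filanesib. Without filanesib the lowest, median and highest arrays read 6.28, 6.68 and 6.94. The highest group mean was that of filanesib plus dexamethasone, 7.22, and the lowest were those of pomalidomide alone, 6.52, and pomalidomide plus dexamethasone, 6.56. The 2 sets of arrays overlapped only between 6.85 and 6.94. The difference was 1.30-fold (95% interval 0.25 to 0.50 on the log2 scale, adjusted p = 0.0013). It was positive in all 4 backgrounds, and in each the 3 arrays with filanesib lay above the 3 without. The call was kept in all 33 alternative settings, with adjusted p of 0.000334 to 0.00905.

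XRCC2 acts in homologous recombination, in a complex that prepares single-stranded DNA for strand exchange (probe set 17064679). Arrays with filanesib ran from 6.02 through a median of 6.42 to 6.98. Those without it ran from 5.41 through 5.95 to 6.25. The sets overlapped, with the highest group mean, 6.75, under filanesib plus dexamethasone and the lowest, 5.82 and 5.70, under pomalidomide alone and pomalidomide plus dexamethasone. The difference was 1.39-fold (95% interval 0.28 to 0.68, adjusted p = 0.0112). Without pomalidomide replicates 1 and 3 together it was 0.38 with adjusted p = 0.0682.

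RAD21 is the cohesin subunit that separase cuts at anaphase, and cohesin also holds sister chromatids together for repair (probe set 17080408). It read 6.08 at the lowest, 6.33 at the median and 6.53 at the highest with filanesib. The matching values without filanesib were 5.79, 6.18 and 6.23. The arrays with pomalidomide alone read 5.96, 5.93 and 5.79 and were, with 1 dexamethasone array at 5.94, the 4 lowest of all. The difference was 1.17-fold (95% interval 0.12 to 0.34, adjusted p = 0.0325). This call rested on a narrow margin: it was lost, with adjusted p of 0.0517 to 0.0784, without any 1 of 13 arrays, namely control replicate 2, filanesib replicates 1 and 3, dexamethasone replicate 1, pomalidomide replicate 3, filanesib plus dexamethasone replicates 1 and 3, filanesib plus pomalidomide replicates 1 and 3, all 3 replicates of pomalidomide plus dexamethasone, and triple replicate 2. Further quantile normalisation gave adjusted p = 0.0893, trended and robust moderation 0.056, and omission of pomalidomide replicates 1 and 3 gave 0.0865.

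**Figure D2:**
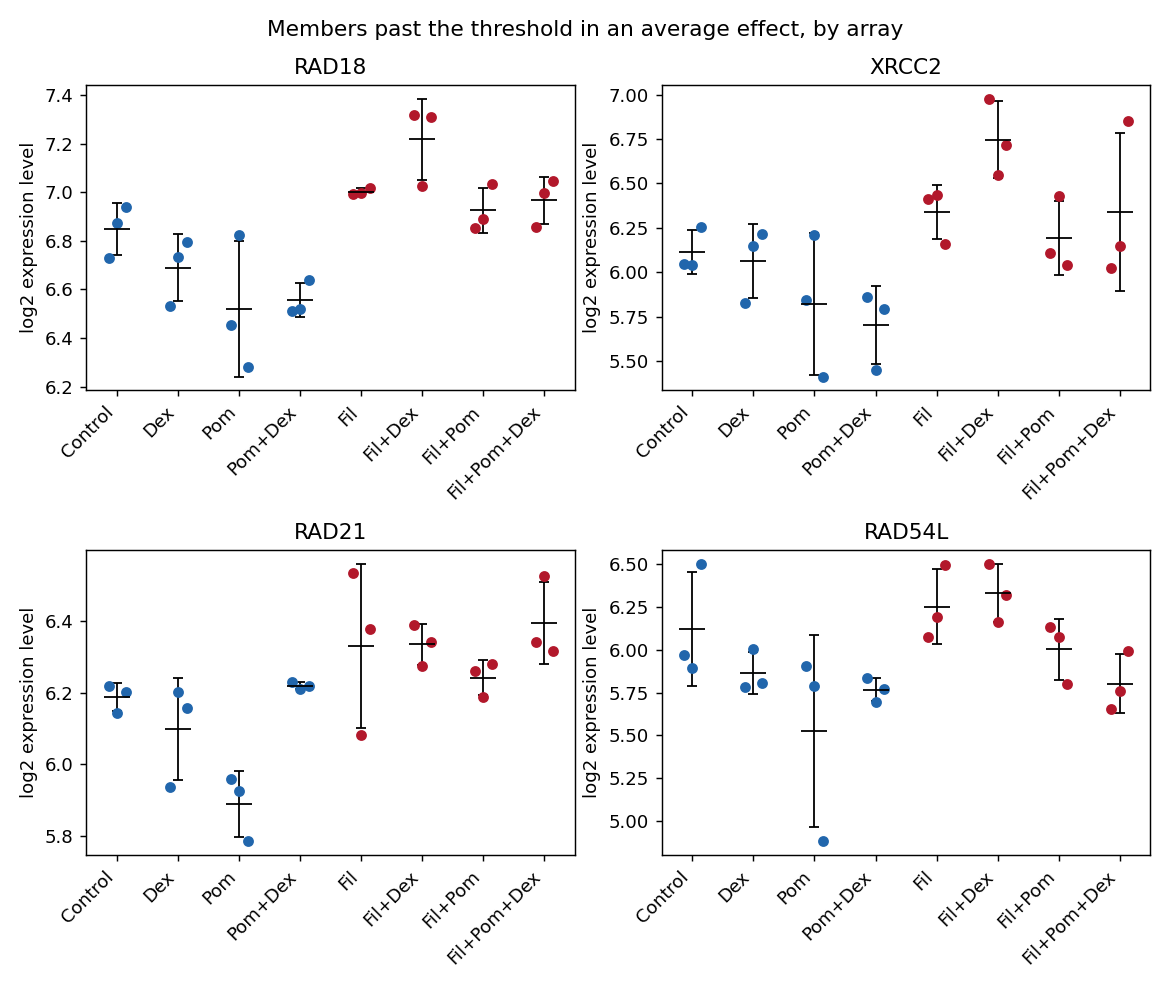
Log2 expression levels of RAD18, XRCC2, RAD21 and RAD54L in each of the 24 arrays by group (Pom, pomalidomide; Dex, dexamethasone; Fil, filanesib), with red points for groups with filanesib, blue for those without, and black bars for the mean and SD of 3 arrays; each panel has its own axis, which does not start at 0. RAD18 in the filanesib groups lies between 6.85 and 7.32, and the lowest point of the RAD54L panel, at 4.88, is pomalidomide replicate 3.

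Other genes of homologous recombination had positive differences that did not pass the test. RAD51AP1, which stimulates strand invasion, differed by 0.31 ± 0.11 with filanesib (adjusted p = 0.194). The strand-exchange translocases RAD54L and RAD54B differed by 0.28 ± 0.10 and 0.23 ± 0.07 (adjusted p = 0.228 and 0.163), and without pomalidomide replicate 1 RAD54B passed, at 0.27 with adjusted p = 0.0468. RAD51C, which works in complexes with XRCC2 or XRCC3, differed by 0.23 ± 0.08 (adjusted p = 0.220) and XRCC3 by 0.13 ± 0.07 (adjusted p = 0.537). The other 4 had differences between -0.03 and -0.01: RAD50, the break-tethering subunit of the MRE11 complex, RAD51AP2, RAD51B, and RAD52, which anneals single strands. In all, 6 of these 10 recombination genes had a positive difference and 1, XRCC2, rose.

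Among end-joining genes, XRCC4, the partner of DNA ligase IV, had a wide range of levels. Its arrays with filanesib ran from 5.21 through a median of 5.98 to 6.35. Without filanesib they ran from 4.89 through 5.62 to 6.33. The array at 6.33 was pomalidomide replicate 1, whose 2 companions read 5.17 and 4.89, so that group spanned nearly the whole range of the 24 arrays. The difference of 0.43 ± 0.13 did not pass (adjusted p = 0.126), and without pomalidomide replicate 1 it was 0.54 with adjusted p = 0.00405. The Ku subunits XRCC5 and XRCC6 differed by 0.11 ± 0.06 and 0.06 ± 0.05 and did not pass.

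In the remaining routes no member passed with filanesib, and most differences were positive. XRCC1, the scaffold of single-strand break repair, differed by 0.23 ± 0.07 (adjusted p = 0.118), and by 0.27 with adjusted p = 0.0266 without control replicate 3, which at 9.34 was its highest array. RAD1, part of the checkpoint clamp, differed by 0.24 ± 0.08 (adjusted p = 0.149), and by 0.29 with adjusted p = 0.0341 without filanesib replicate 2. RAD9A, its clamp partner, differed by 0.16 ± 0.08, RAD9B by 0.11 ± 0.05, and RAD17, which loads the clamp, by -0.01 ± 0.08. For mismatch repair, MSH6 and MSH3, which recognise mismatches and small loops, differed by 0.15 ± 0.07 and 0.13 ± 0.06, and MLH3 by 0.09 ± 0.07. MSH5, a MutS homologue known for meiotic crossing-over, differed by 0.28 ± 0.09 (adjusted p = 0.194). RAD23B, a partner of the lesion sensor XPC, differed by 0.12 ± 0.05 (adjusted p = 0.388).

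The remaining 5 members were not grouped with the routes above, and some of them are antisense or read-through RNAs. With filanesib, RAD54L2, a chromatin ATPase named for its likeness to RAD54, differed by 0.10 ± 0.08, and RAD21-AS1 by 0.11 ± 0.08. RAD21L1, the germline cohesin subunit, ERCC6L2-AS1 and the MSH5-SAPCD1 read-through RNA differed by -0.05, -0.03 and -0.04. For MSH5-SAPCD1, 4 of its 5 probe sets held identical values. Both MSH5 probe sets had a positive difference with filanesib, 0.28 ± 0.10 and 0.34 ± 0.12. The MSH5 and MSH5-SAPCD1 transcripts overlap, and their values cannot be fully separated.

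Pomalidomide lowered 1 of the 30 genes, RAD54L, when averaged over the backgrounds. Of all genes 4.86% were called, 2.21% higher and 2.65% lower, and the share of members called was 3.33%. RAD54L fell by 0.37 ± 0.10 (SE). Members had a median difference of -0.05, against -0.0062 over all genes, and 10 of 30 were positive, against 47.5% of all genes. Among genes with a mean level of at least 5, 4 of 19 members were positive, against 41.3% of all such genes. Members with a negative difference in all 4 backgrounds numbered 12, against 12.1% of all genes, and none was positive in all 4, against 10.1%. At an unadjusted p under 0.05 there were 9 members, against 17.3% of all genes.

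RAD54L drives the strand exchange of recombination along chromatin (probe set 16664243). Its 12 arrays with pomalidomide read 4.88 at the lowest, 5.79 at the median and 6.13 at the highest. The lowest, median and highest of the 12 without read 5.78, 6.12 and 6.503. The lowest array, pomalidomide replicate 3, lay well below the next lowest with pomalidomide, at 5.655, and the 2 sets overlapped. The difference was 1.29-fold lower with pomalidomide (95% interval -0.57 to -0.16, adjusted p = 0.0317). The call was lost, with adjusted p of 0.0507 to 0.0674, without any 1 of 7 arrays, namely control replicate 3, filanesib replicate 3, dexamethasone replicate 2, filanesib plus dexamethasone replicates 1 and 3, filanesib plus pomalidomide replicate 3 and triple replicate 1; without pomalidomide replicate 3 it was kept.

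Other members with lower levels under pomalidomide did not pass. XRCC2 differed by -0.30 ± 0.10 (adjusted p = 0.0871) and passed without pomalidomide replicate 2 or triple replicate 3, with adjusted p of 0.0312 and 0.0173. With array weights it also passed (adjusted p = 0.0484). RAD18 differed by -0.20 ± 0.06 (adjusted p = 0.0688) and passed without pomalidomide replicate 2 or filanesib plus dexamethasone replicate 2, with adjusted p of 0.0118 and 0.0416. With all arrays kept, RAD18 passed after further quantile normalisation (adjusted p = 0.0407) and among genes with a mean level of at least 5 (0.0491). Beside these, RAD51AP1 differed by -0.23 ± 0.11, RAD1 by -0.21 ± 0.08, MSH6 by -0.20 ± 0.07, XRCC1 by -0.18 ± 0.07 and XRCC3 by -0.16 ± 0.07, with adjusted p of 0.116 to 0.249. RAD1 passed, at -0.26 with adjusted p = 0.0356, without filanesib replicate 2. The largest positive differences were those of RAD51B, a recombination gene, at 0.19 ± 0.07 (adjusted p = 0.160), XRCC4 at 0.14 ± 0.13 and RAD50 at 0.11 ± 0.08. Pomalidomide replicates 1 and 3 moved the last 2: without the first, XRCC4 was at 0.03 and RAD50 at 0.07, and without the third at 0.21 and 0.17. XRCC4 was also at 0.08 without dexamethasone replicate 1 or without filanesib plus dexamethasone replicate 2. RAD51B passed, at 0.24 with adjusted p = 0.0310, without pomalidomide replicate 1. RAD23B, RAD52 and RAD51AP2 differed by less than 0.01, and the other members lay between -0.14 and 0.05.

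**Figure D3:**
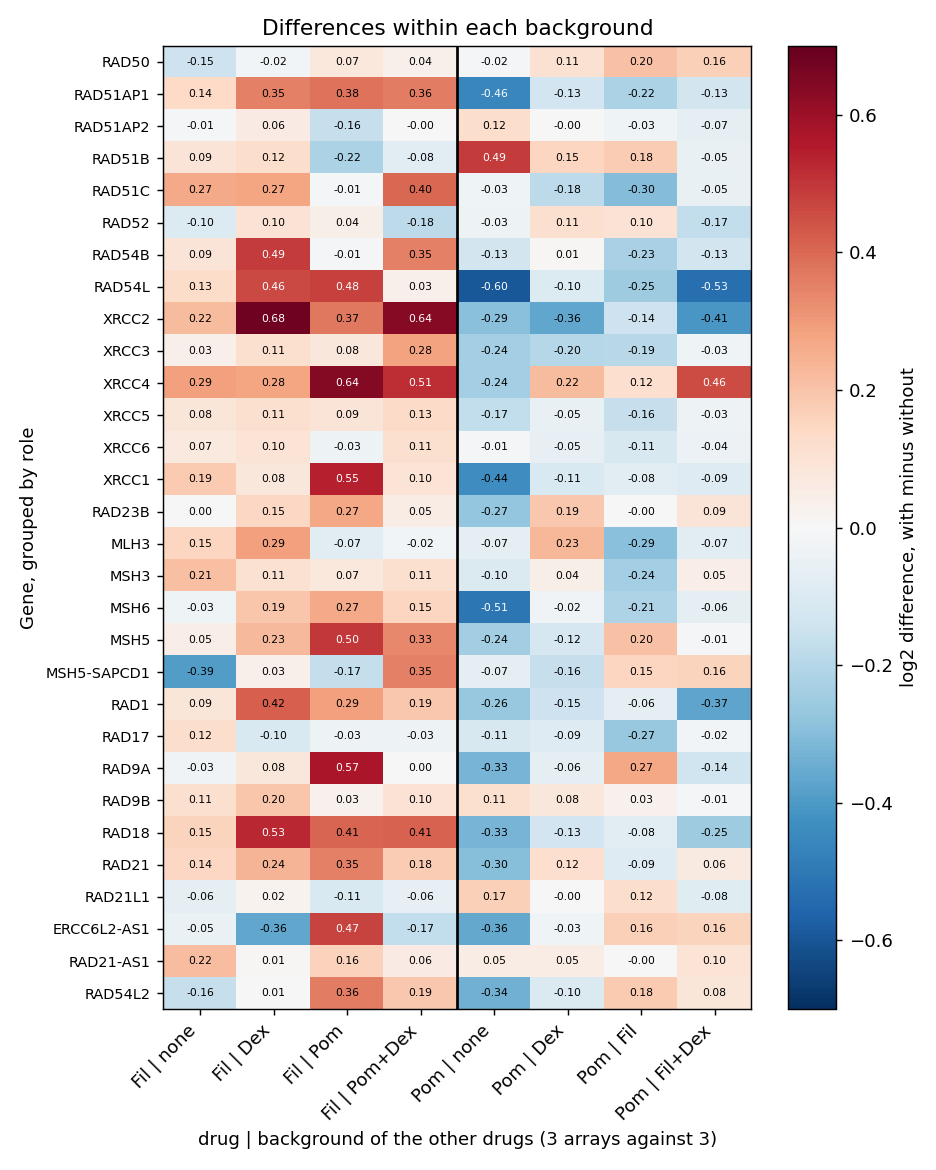
Log2 difference with minus without filanesib (left 4 columns) and pomalidomide (right 4 columns) for the 30 genes in each background of the other drugs, 3 arrays against 3, with blue for lower and red for higher values and the value printed in each cell. XRCC2, XRCC4 and RAD18 are red in all filanesib columns, and no cell passed the threshold. Columns of the same drug share no arrays, and each filanesib column shares groups of arrays with pomalidomide columns.

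Within single backgrounds, where 3 arrays met 3, no member passed for either drug. Of all genes, filanesib called 0% alone, 0.0202% beside dexamethasone, 0.356% beside pomalidomide and 0.00672% beside both, and pomalidomide called 1.98% alone, 0.249% beside filanesib, and 0.0269% in each of the other backgrounds. At an unadjusted p under 0.05, 10 members differed with filanesib beside pomalidomide, against 13.3% of all genes. The same count was 0 with no other drug, against 3.94% of all genes, 6 beside dexamethasone, against 5.73%, and 4 beside both, against 7.29%. The smallest p beside pomalidomide was XRCC1 at 0.55 ± 0.14 (adjusted p = 0.079), for which the pomalidomide arrays read 8.42, 8.77 and 8.49 and those with both drugs 9.18, 9.10 and 9.04. The groups did not overlap. XRCC2 had its largest filanesib differences beside dexamethasone, 0.68 ± 0.20, and beside dexamethasone plus pomalidomide, 0.64 ± 0.20, and a smaller one, 0.22 ± 0.20, with no other drug.

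With pomalidomide alone against control, MSH6 differed by -0.51 ± 0.14 (adjusted p = 0.0662). Its control arrays read 7.003, 6.81 and 6.86 and the pomalidomide arrays 6.57, 6.56 and 6.01. The groups did not overlap, and the third pomalidomide array lay far below the other two. RAD54L differed by -0.60 ± 0.20, RAD51B by 0.49 ± 0.15 and XRCC1 by -0.44 ± 0.14, with adjusted p of 0.0869 to 0.123. These SEs are pooled over all groups. The SD of the pomalidomide arrays themselves was 0.56 for RAD54L, 0.40 for RAD51B and 0.18 for XRCC1. Members' median was -0.20, against -0.02 over all genes. For the 19 members with a mean level of at least 5 it was -0.27, against -0.12 over all such genes. In the other 3 backgrounds the members' median with pomalidomide was between -0.07 and -0.04. Single arrays moved these counts: without pomalidomide replicate 2, MSH6, RAD18 and XRCC1 passed for pomalidomide alone and RAD18, RAD9A and XRCC1 for filanesib beside pomalidomide. Without pomalidomide replicate 1 the members passing in those comparisons were RAD51B and XRCC4, XRCC1 passed for pomalidomide alone without control replicate 2 and for filanesib beside pomalidomide without control replicate 3, and among genes with a mean level of at least 5 MSH6 passed for pomalidomide alone.

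The triple combination was set against pomalidomide plus dexamethasone, which asks what filanesib adds to the pair. This is the same comparison as filanesib beside both drugs above, and it is also part of filanesib's average effect. No member passed in limma's test, and 0.00672% of all genes did. At an unadjusted p under 0.05 there were 4 members, RAD18, RAD51C, RAD54B and XRCC2, against 7.29% of all genes. In 9 members all 3 triple arrays lay above all 3 arrays of the pair and in none below, against 7.22% of all genes above and 8.53% below. Positive differences were found in 23 members, against 46.4% of all genes. XRCC2 had arrays at 6.02, 6.15 and 6.85 with the triple combination and at 5.86, 5.45 and 5.80 with the pair. The groups did not overlap, and 1 triple array stood well above the other two. The difference was 0.64 ± 0.20 (95% interval 0.23 to 1.05, adjusted p = 0.319), and it was 0.38 without that array, triple replicate 3.

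XRCC4 read 5.97, 6.16 and 6.35 with the triple combination and 5.70, 5.61 and 5.63 with the pair. The pair's arrays were tightly grouped and all lower. The difference was 0.51 ± 0.26 (adjusted p = 0.711). RAD18 read 6.86, 6.996 and 7.05 against 6.51, 6.52 and 6.64, a difference of 0.41 ± 0.12 (adjusted p = 0.274). For RAD51C the arrays read 4.59, 4.89 and 4.66 against 4.25, 4.49 and 4.19, a difference of 0.40 ± 0.17 at a low level on the array (adjusted p = 0.551). These groups did not overlap either. The other 5 were MSH5-SAPCD1, whose groups met at 5.25, RAD54B, MSH5, RAD21 and XRCC6, with differences of 0.11 to 0.35. The lowest differences were those of RAD52, at -0.18, and ERCC6L2-AS1, at -0.17. The latter was 0.07 without pomalidomide plus dexamethasone replicate 2, -0.44 without replicate 3 of that group, and -0.08 and -0.27 without triple replicates 2 and 3.

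**Figure D4:**
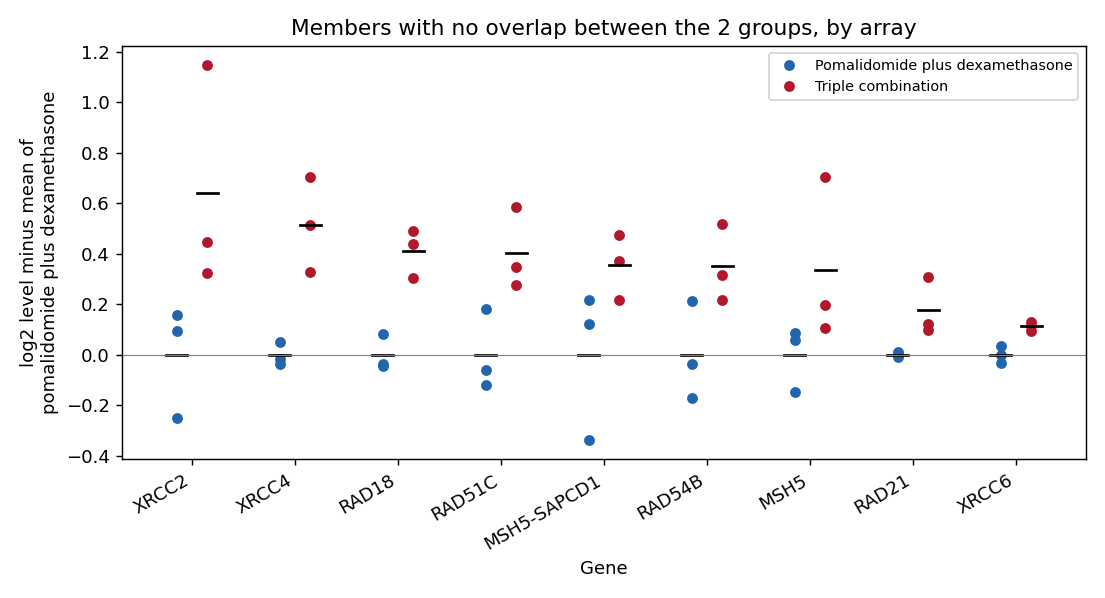
Log2 levels of the 9 genes whose triple-combination arrays (red) all lay above the arrays of pomalidomide plus dexamethasone (blue), each shown minus the mean of the pair's 3 arrays, with black bars for group means. XRCC2 has the largest mean difference, 0.64, with 1 triple array far above the others, and none of the 9 passed the adjusted test.

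Against control, the triple combination changed no member in limma's test, at an adjusted or an unadjusted p under 0.05, against 0.255% and 10.6% of all genes. XRCC4 had the largest positive difference, 0.46 ± 0.26, followed by MSH5 at 0.31 ± 0.19, and RAD54L the most negative, -0.32 ± 0.20, followed by RAD52 at -0.09 ± 0.12 (adjusted p of 0.570 to 0.864). Single arrays moved these values: MSH5 was at 0.13 without triple replicate 3, RAD54L at -0.13 without control replicate 3 and RAD52 at -0.03 without triple replicate 1. RAD21, RAD50, XRCC4 and XRCC6 had all 3 triple arrays above all 3 control arrays, against 8.79% of all genes. XRCC2 and RAD18 differed by 0.23 ± 0.20 and 0.12 ± 0.12 from control, and their 95% intervals ran from -0.18 to 0.64 and from -0.13 to 0.37.

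Dexamethasone called no member, and 0.0134% of all genes, in limma's test, and no member had an unadjusted p under 0.05, against 7.68% of all genes. Positive differences were found in 24 of 30 members, with a median of 0.05, against 49.6% of all genes. By background, with no other drug 8 of 30 members were positive, with a median of -0.04, against 45.4% of all genes. Beside filanesib 20 members were positive, against 48.3%, beside pomalidomide 20, against 55.7%, and beside both 21, against 49.6%. The most positive were ERCC6L2-AS1 at 0.17 ± 0.11 and MSH5 at 0.16 ± 0.09, and the most negative XRCC4 at -0.08 ± 0.13 and RAD51C at -0.07 ± 0.08. Without pomalidomide replicate 1, XRCC4 was at 0.03 and RAD51C at -0.03, and without pomalidomide replicate 3 they were at -0.15 and -0.13. ERCC6L2-AS1 was at 0.11 without pomalidomide replicate 3, filanesib plus dexamethasone replicate 1 or pomalidomide plus dexamethasone replicate 2. The interaction of filanesib with pomalidomide, which asks whether filanesib's effect differs when pomalidomide is present, called no member and 0% of all genes, and RAD54L2 was the only member with an unadjusted p under 0.05, at 0.35 ± 0.16 (adjusted p = 0.692), against 6.69% of all genes. For ERCC6L2-AS1 the interaction was 0.36 ± 0.23, for MLH3 -0.26 ± 0.14 and for RAD51B -0.26 ± 0.15; without pomalidomide replicate 3 it was 0.23 for ERCC6L2-AS1 and -0.15 for RAD51B. For the genes called with filanesib, the interaction was 0.07 ± 0.12 in RAD18, 0.05 ± 0.20 in XRCC2 and 0.08 ± 0.11 in RAD21, with 95% intervals of -0.19 to 0.32, -0.36 to 0.46 and -0.15 to 0.30.

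Repair genes with other names were read from a list of 107, of which 62 were measured. The list was chosen with earlier results of these data known, so its shares are descriptive. Pomalidomide lowered 13 of the 62, against 2.65% of all genes, and raised none, against 2.21%, with a median of -0.10 against -0.0062. UNG, which removes uracil from DNA, fell by 0.39 ± 0.06 (adjusted p = 0.000703), the sliding clamp PCNA fell by 0.42 ± 0.08 (0.00171), the exonuclease EXO1 fell by 0.58 ± 0.11 (0.00255) and the topoisomerase TOP3A fell by 0.29 ± 0.06 (0.00303). Filanesib raised 6 of the 62, against 1.25% of all genes, and lowered none, against 0.148%, with a median of 0.13 against -0.0019. The ubiquitin-conjugating enzyme of the Fanconi pathway, UBE2T, rose by 0.41 ± 0.08 (adjusted p = 0.00517), the junction resolvase GEN1 by 0.67 ± 0.13 (0.00733), the checkpoint kinase CHEK1 by 0.44 ± 0.09 (0.00816) and PSMC3IP, a helper of strand exchange, by 0.32 ± 0.07 (0.0186). UBE2T, PSMC3IP and CHEK1 were called in both, higher with filanesib and lower with pomalidomide. Dexamethasone called none of the 62, against 0.0134% of all genes. Of 19 listed p53 target genes 9 were measured, and none was called with any of the 3 drugs. Of all genes 1.40% were called with filanesib, 4.86% with pomalidomide and 0.0134% with dexamethasone. At these shares, 9 genes are too few to tell whether p53 targets changed.

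Cell cycle genes moved beside the repair genes. The cell cycle and marker lists were also chosen with earlier results of these data known, so their counts are descriptive and not a test. All 24 mitosis genes measured, of 30 listed, rose with filanesib, against 1.25% of all genes. Their median difference was 0.50, and their mean level per group was 7.01 to 7.33 without filanesib and 7.56 to 7.69 with it. CDC20, which activates the anaphase-promoting complex, rose by 0.71 ± 0.06. Of 21 replication genes measured, from 31 listed, 19 fell with pomalidomide, against 2.65% of all genes. The median of the 21 was -0.39, and their mean level per group was 7.12 to 7.37 without pomalidomide and 6.67 to 7.04 with it. MCM10, a replication initiation factor, fell by 0.52 ± 0.07. Filanesib raised 3 of the 21, against 1.25% of all genes, with a median of 0.18. The part of these shifts in the values of RAD18, XRCC2, RAD21 and RAD54L was not tested. With pomalidomide the mean of 6 macrophage markers per group was 4.501 to 4.61, against 4.32 to 4.45 without it. By gene, only 3 of the 6 had a positive difference, with a median of 0.01 over the 6. CD68 was the only macrophage marker called, and it rose by 0.99. CD14 and CD163 had mean levels of 3.07 and 2.95, below the array medians. The part of this macrophage marker shift in the values was not tested. Of 8 plasma cell markers, CD38 was called higher and IRF4 lower with pomalidomide, against 2.21% of all genes higher and 2.65% lower. The mean of 6 endothelial markers was lower with filanesib in 3 backgrounds, without overlap. Its arrays read 4.207 to 4.349 against 4.397 to 4.538 beside dexamethasone, 4.285 to 4.382 against 4.436 to 4.589 beside pomalidomide, and 4.113 to 4.361 against 4.402 to 4.436 beside both. With no other drug the arrays overlapped, at 4.344 to 4.599 against 4.42 to 4.446. There the mean was higher with filanesib, 4.471 against 4.436 in control. None of the 6 was called with filanesib, PECAM1, an endothelial adhesion molecule, had a mean level of 3.68 near the array medians, and the part of this in the values was not tested.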

How the data were processed

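Log2 expression levels per probe set were made by the authors with RMA; the submitters' processing notes name Affymetrix Expression Console, and versions are not given in the sources used here. RMA corrects background, quantile-normalises arrays and summarises probes, so a shift shared by all genes would not be seen. Of 53617 probe sets, 16098 had 1 symbol in the platform table, 37519 none and none several. The probe set with the highest mean over 24 arrays was kept for each of 14884 genes (779 had several). A model of 8 group means was fitted to all genes and arrays with limma 3.58.1 in R 4.3.3 and moderated with eBayes; p-values were Benjamini-Hochberg adjusted within each comparison, at a threshold of 0.05. The fit was also run on simulated data in which each gene had the same spread in every array. The arrays with pomalidomide alone spread more than that, so the simulation does not cover them. Differences are with minus without a drug. Named genes were members past the threshold, the 2 largest rises and falls of each main comparison, the highest and lowest levels, a fixed list of core repair genes, and up to 4 other repair genes with the smallest p per drug; further members were named to account for all 30, after their values were seen. The members and gene lists were chosen with earlier results of these data known. Alternatives covered normalisation, dim genes, array weights, moderation, probe sets, replicate block and omitted arrays. No human sequence table was used here.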

Additional observations from a re-analysis of the deposited data

Results flagged for a closer look

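In 2 members, every array moved one way in 1 background and the opposite way in another. With dexamethasone, MSH6 differed by 0.20 beside filanesib plus pomalidomide and by -0.17 with no other drug, and the groups did not overlap in either. With pomalidomide, RAD21 differed by 0.12 beside dexamethasone and by -0.30 with no other drug, again without overlap. Over all 14884 genes the same pattern was found in 2.92% with dexamethasone and 2.69% with pomalidomide, and 1 of 30 members had it with each. With filanesib no member had it, against 3.21% of all genes. These differences between backgrounds were not tested.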

How the results depend on the processing

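With filanesib the count of members called was 2 to 5 when single arrays were left out, and 5 without pomalidomide replicate 1. With pomalidomide it was 0 to 3 when single arrays were left out, 2 after further quantile normalisation, 2 among genes with a mean level of at least 5 and 2 with array weights. For pomalidomide alone the count was 1 among genes with a mean level of at least 5 and 0 to 3 when single arrays were left out; for filanesib beside pomalidomide it was 0 to 3 under the same omissions, and for filanesib beside dexamethasone it was 1 with array weights. Counts for dexamethasone, the triple combination and the interaction were 0 in every setting run. With array weights XRCC4 passed with filanesib (0.43, adjusted p = 0.0267). The cause of each of these shifts was not tested.

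Same-numbered arrays did not pair: over 84 pairs their deviations correlated at -0.316 to 0.305 (median -0.0245), and 2 of 24 arrays correlated best with their own number. With the replicate number as a block, filanesib called 2 members, RAD18 and XRCC2 (adjusted p = 0.00217 and 0.0210), RAD21 had adjusted p = 0.0523, pomalidomide called RAD54L (0.0459), and no other call changed.

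Signs turned in these settings. With pomalidomide replicates 1 and 3 omitted, the average pomalidomide difference was 0.0749 for ERCC6L2-AS1, 0.0162 for MSH5, -0.0560 for MSH5-SAPCD1, -0.0154 for RAD21L1, -0.0263 for RAD51AP2, 0.0208 for RAD54L2 and 0.0168 for RAD9A, and the filanesib difference was 0.0170 for RAD21L1, 0.0331 for MSH5-SAPCD1, -0.0103 for RAD21-AS1 and 0.0037 for RAD51AP2. Averaging probe sets gave 0.0332 for ERCC6L2-AS1 and 0.0120 for MSH5 with pomalidomide and 0.0074 for ERCC6L2-AS1 in the triple combination against the pair. Array weights gave 0.0036 for RAD54L2 with pomalidomide and 0.0127 for MSH5-SAPCD1 with filanesib, and quantile normalisation -0.0082 for RAD51AP2 with pomalidomide. When single arrays were left out, pomalidomide differences ran from -0.0786 to 0.0488 for ERCC6L2-AS1, -0.0189 to 0.0809 for MSH5-SAPCD1, -0.0114 to 0.0868 for RAD21-AS1, -0.0187 to 0.0245 for RAD23B, -0.0271 to 0.0347 for RAD51AP2, -0.0251 to 0.0337 for RAD52 and -0.0872 to 0.00091 for RAD54L2. The filanesib ranges were -0.0938 to 0.0337 for ERCC6L2-AS1, -0.104 to 0.0035 for MSH5-SAPCD1, -0.0642 to 0.0293 for RAD17, -0.0716 to 0.0333 for RAD50 and -0.0706 to 0.0302 for RAD51B. XRCC4 with dexamethasone ran from -0.153 to 0.0276, and ERCC6L2-AS1 in the triple combination against the pair from -0.439 to 0.0713. Dim members have little signal over background, which limits what their differences can show.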
